A study of Mus musculus with 18 samples.

Results

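The genes of sterol and fatty acid synthesis were examined step by step in microglia, the brain's own macrophages, taken from mice and grown as primary cultures. The set was chosen by name and holds 35 of the 54532 genes in the count table. It holds 18 enzymes of the mevalonate and cholesterol pathway, 6 genes of sterol sensing and transport, and 11 genes of fatty acid synthesis, elongation and desaturation. All 35 passed the filter on low counts, which left 13267 genes for testing. The 18 libraries formed 6 groups of 3. The groups were R47H/+ cells with MK-2206 and tau, R47H/+ cells with MK-2206 alone, R47H/+ cells with tau, R47H/+ cells without tau, Trem2+/+ cells with tau, and Trem2+/+ cells without tau. The genotypes are labelled hTrem2 R47H/+ and mTrem2 +/+. The first has 1 allele of the lipid-sensing receptor TREM2 with the R47H change, which the label marks as a human copy. No group has a human copy without R47H, so between genotypes R47H and the human copy cannot be told apart. Tau stands for 0N4R tau fibrils at 1 ug per ml, and the time from their addition to harvest is not given in the sources used here. All cells had a pre-treatment of 6 h, either with MK-2206 at 1 uM, which inhibits the kinase Akt, or with 0.01% DMSO as its vehicle. The cells came from pups of postnatal day 0 to 3 and had spent 10 days in mixed culture, so they are newborn cells kept outside the brain. The labels do not say whether replicates were separate cultures or animals, so every p-value rests on a spread between libraries that may be technical only.

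Cells make cholesterol from acetyl-CoA through mevalonate, farnesyl diphosphate, squalene and lanosterol, and they make fatty acids from the same acetyl-CoA with NADPH as the reductant. The transcription factor SREBP2, encoded by Srebf2, drives the sterol genes, and SREBP1, encoded by Srebf1, drives mainly the fatty acid genes. Both are held in the endoplasmic reticulum as a complex of the escort protein SCAP with an INSIG protein while sterols are plentiful, and they reach the nucleus after cleavage in the Golgi when sterols run low. Microglia take up lipid-rich debris, and in mice TREM2 is known to take part in how these cells handle the cholesterol that such debris brings in.

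The libraries held between 16288531 and 20686299 counts, and Trem2 itself lay between 451.2 and 489.1 CPM (counts scaled to library size) in R47H/+ cells without tau and between 935.0 and 1894 CPM in Trem2+/+ cells without tau, where the mouse gene model need not count reads of a human copy. Trem2+/+ replicate 3 and R47H/+ with tau replicate 2 stood apart from their groups, with long genes low and short genes high. Per 10-fold gene length, log2 CPM changed by -1.27 and -0.60 there, and by -0.10 to 0.19 elsewhere, and results that rest on them are also given without both. Microglial markers summed to between 4284 and 8030 CPM per library. Vascular markers summed to at most 2.78 CPM with Cldn5 at 0, and neuronal markers to at most 3.50 CPM. Astrocyte markers summed to 72.2 to 91.7 CPM in R47H/+ cells with tau and 57.2 to 58.9 CPM in R47H/+ cells without tau, to 86.5 to 98.5 CPM with MK-2206 and tau and 36.7 to 54.3 CPM with MK-2206 alone, and to 80.9 to 91.2 CPM in Trem2+/+ cells with tau and 41.8 to 47.5 CPM in Trem2+/+ cells without tau. Of the 4 astrocyte markers tested, 2 were higher and 1 was lower with tau in R47H/+ cells. Most of the astrocyte sum came from Aldh1l1, which averaged 73.1 CPM with tau and 50.5 CPM without in R47H/+ cells. It averaged 85.8 and 39.0 CPM with MK-2206, and 71.2 and 27.2 CPM in Trem2+/+ cells. Gfap stayed at or below 1.09 CPM in the mean of every group. Oligodendrocyte markers summed to 268.8 to 301.3 CPM in R47H/+ cells with tau and 234.3 to 236.1 CPM in R47H/+ cells without tau, with 2 of 7 higher and 3 lower. They summed to 281.1 to 285.2 CPM with MK-2206 and tau and 217.8 to 229.7 CPM with MK-2206 alone, and to 276.8 to 301.2 CPM in Trem2+/+ cells with tau and 209.9 to 246.6 CPM in Trem2+/+ cells without tau, with 2 higher and 2 lower in each. The part of these markers in the results was not tested.

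Without tau in Trem2+/+ cells, the levels of the 35 genes per kilobase of transcript spread widely. Insig1, which holds the SREBP complex in place, stood highest at 51.1 ± 2.94 CPM per kb (SD, n = 3). Acly, which releases acetyl-CoA from citrate, stood next at 49.9 ± 17.1 CPM per kb, and the lanosterol demethylase gene Cyp51 followed at 40.05 ± 6.45 CPM per kb. The spreads of these neighbours overlapped, so their order is not fixed by 3 libraries. At the low end were Acss2, which makes acetyl-CoA from acetate, at 0.771 ± 0.241 CPM per kb, Fdps, which makes farnesyl diphosphate, at 0.680 ± 0.206 CPM per kb, and Elovl6, an elongase of saturated fatty acids, at 0.122 ± 0.0457 CPM per kb. Fdps and Elovl6 had 438 and 176 counts in all 18 libraries together, too few for a firm value.

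The start of a gene is where SREBP and its partner NF-Y are known to bind. Promoter windows from 250 bases before to 50 after the annotated start (RefSeq, GRCm38.p6) were at hand for 28 of the 35 genes. Windows are shown for the gene of each class with the smallest p for tau in R47H/+ cells among those in the table, and for Hmgcs1, which was added after its motif was seen. They lie at chr13:119690101-119690400 (plus strand), chr13:8885356-8885655 (plus), chr10:76531355-76531654 (plus), chr5:4104648-4104947 (minus), chr5:28071162-28071461 (plus), chr9:86695865-86696164 (minus) and chr9:77917115-77917414 (plus), and capitals mark the matches described after them.
Hmgcs1: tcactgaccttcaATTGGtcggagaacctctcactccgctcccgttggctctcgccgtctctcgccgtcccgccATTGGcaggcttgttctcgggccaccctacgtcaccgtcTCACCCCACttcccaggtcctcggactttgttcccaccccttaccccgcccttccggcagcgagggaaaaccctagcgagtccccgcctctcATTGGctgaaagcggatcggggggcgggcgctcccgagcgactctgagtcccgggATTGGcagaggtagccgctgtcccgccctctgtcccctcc
Idi1: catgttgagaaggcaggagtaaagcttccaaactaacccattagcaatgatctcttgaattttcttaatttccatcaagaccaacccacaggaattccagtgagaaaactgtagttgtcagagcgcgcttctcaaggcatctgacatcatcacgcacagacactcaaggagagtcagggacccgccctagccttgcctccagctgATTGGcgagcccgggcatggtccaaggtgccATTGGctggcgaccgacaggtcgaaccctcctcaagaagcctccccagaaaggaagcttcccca
Lss: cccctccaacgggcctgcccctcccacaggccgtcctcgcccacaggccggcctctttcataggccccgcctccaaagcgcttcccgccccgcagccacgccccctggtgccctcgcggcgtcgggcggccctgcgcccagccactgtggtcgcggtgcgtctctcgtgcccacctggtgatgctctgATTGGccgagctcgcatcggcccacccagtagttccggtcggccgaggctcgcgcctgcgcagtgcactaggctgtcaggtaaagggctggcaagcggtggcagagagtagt
Cyp51: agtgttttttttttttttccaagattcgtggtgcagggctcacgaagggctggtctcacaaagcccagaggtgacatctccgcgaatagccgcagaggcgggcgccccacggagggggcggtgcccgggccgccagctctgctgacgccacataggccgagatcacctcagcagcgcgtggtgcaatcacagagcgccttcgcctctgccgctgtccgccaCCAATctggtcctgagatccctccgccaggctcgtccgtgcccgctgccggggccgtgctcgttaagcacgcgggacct
Insig1: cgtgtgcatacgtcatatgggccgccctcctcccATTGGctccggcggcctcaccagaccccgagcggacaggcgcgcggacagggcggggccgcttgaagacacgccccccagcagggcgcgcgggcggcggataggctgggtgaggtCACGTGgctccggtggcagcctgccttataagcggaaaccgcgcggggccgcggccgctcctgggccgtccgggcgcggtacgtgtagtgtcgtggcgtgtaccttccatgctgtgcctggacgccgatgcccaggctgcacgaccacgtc
Me1: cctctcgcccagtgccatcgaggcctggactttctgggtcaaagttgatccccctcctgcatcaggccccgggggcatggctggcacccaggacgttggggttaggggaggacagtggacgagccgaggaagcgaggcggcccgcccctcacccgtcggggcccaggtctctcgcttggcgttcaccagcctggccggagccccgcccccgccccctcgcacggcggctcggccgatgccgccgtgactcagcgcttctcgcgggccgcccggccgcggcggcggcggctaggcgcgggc
Elovl5: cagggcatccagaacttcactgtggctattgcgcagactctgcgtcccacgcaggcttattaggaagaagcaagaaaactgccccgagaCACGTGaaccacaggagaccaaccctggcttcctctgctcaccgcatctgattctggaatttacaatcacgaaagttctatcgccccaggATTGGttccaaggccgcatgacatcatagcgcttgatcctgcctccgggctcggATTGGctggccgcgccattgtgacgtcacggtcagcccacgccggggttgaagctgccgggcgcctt

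Both strands were searched for 3 motifs, and no matches in the printed windows overlapped. The sterol regulatory element TCACNCCAC occurred in 1 of the 28 genes, Hmgcs1, where it reads TCACCCCAC and begins 137 bases before the start, and in 1.24% of all 32851 promoter windows in the table. The NF-Y box CCAAT, or ATTGG on the other strand, occurred in 23 of the 28 genes and in 37.4% of all windows. The E-box CACGTG, a motif that SREBP1 can also bind, occurred in 6 of the 28 genes, Insig1 and Elovl5 among them, and in 7.15% of all windows. A gene can have several windows, so the member count is per gene and the background is per window. The window printed for Me1 held none of the 3, although a second Me1 start in the table held an NF-Y box. A match describes these letters and is not a shown binding site. Only exact matches to the letters given were searched, so a window without a match is not shown to lack a site.

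Tau fibrils lowered most of the sterol synthesis genes in all 3 settings in which they were given. In R47H/+ cells 23 of the 35 genes fell with tau and 3 rose, when 27.6% of all genes tested were called (15% higher and 12.6% lower). In R47H/+ cells with MK-2206, 18 fell and 3 rose, when 25.6% of all genes were called (14.3% higher and 11.3% lower). In Trem2+/+ cells 19 fell and 1 rose, when 26.5% of all genes were called (14.4% higher and 12.1% lower). The median log2 changes of the 35 genes were -0.96, -0.69 and -0.72 in this order, against 0.00, -0.03 and -0.04 over all genes tested. Log2 changes with tau given in threes follow this order of settings. The 3 comparisons share no library, though 1 fit gave them a common estimate of the spread. In each of them 14 genes fell, which is 14 of 23, 14 of 18 and 14 of 19 genes lowered. They are Acat2, Hmgcs1, Idi1, Fdps, Fdft1, Sqle, Lss, Cyp51, Msmo1, Hsd17b7, Sc5d, Insig1, Stard4 and Fads1. The share of all genes lowered in all 3 comparisons was not computed, so this overlap has no background beside it. Calls are from the quasi-likelihood test of edgeR with p-values adjusted by Benjamini-Hochberg across the genes that passed the filter, at an adjusted p below 0.05. In bulk RNA, less RNA per cell and fewer expressing cells cannot be told apart. Fitted by themselves, the 6 Trem2+/+ libraries gave 11 calls among the 35 in place of 20, when 10.5% of all genes were called. When each pair of groups was fitted by itself, 10 of the 14 genes fell in every setting, and Idi1, Fdps, Lss and Fads1 lost their Trem2+/+ call. Without both length-shifted libraries 27 genes fell and 3 rose in R47H/+ cells, when 42.8% of all genes were called. In that fit 25 fell and 4 rose with MK-2206 (48% of all genes), and 26 fell and 1 rose in Trem2+/+ cells (41.4%).

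**Figure D1:**
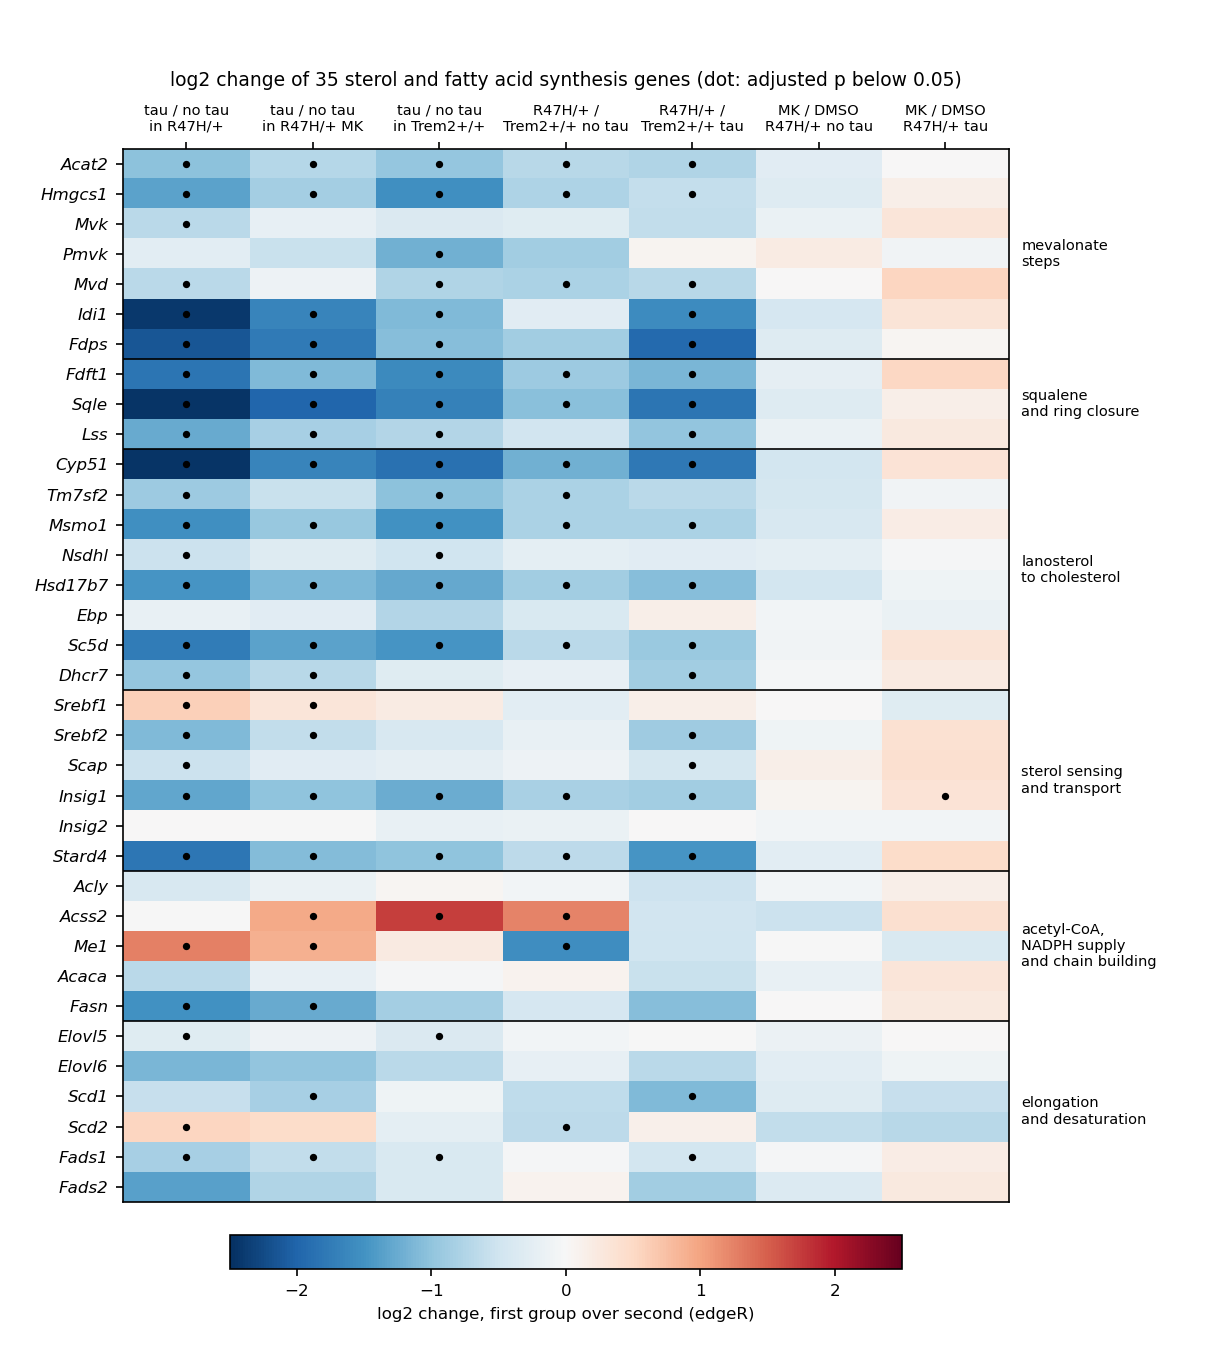
Log2 change of the 35 genes (rows, by role) in the 7 pairwise comparisons (columns, first group over second), with a dot where the adjusted p was below 0.05 (edgeR). Blue fills most sterol rows of the first 5 columns, with 23, 18, 19, 14 and 19 genes lowered, and the MK-2206 columns hold 1 dot, on Insig1.

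The mevalonate steps, from acetyl-CoA to farnesyl diphosphate, fell with tau at 6 of 7 genes in R47H/+ cells, 4 of 7 in R47H/+ cells with MK-2206 and 6 of 7 in Trem2+/+ cells. Idi1, which converts isopentenyl diphosphate to its isomer, measured 4.75, 2.93 and 3.20 CPM in R47H/+ cells with tau, against 18.1, 20.2 and 19.3 CPM in R47H/+ cells without tau. In R47H/+ cells with MK-2206 it measured 4.12, 4.71 and 4.81 CPM with tau and 16.2, 13.8 and 12.8 CPM without. In Trem2+/+ cells it measured 9.80, 8.70 and 13.98 CPM with tau and 26.97, 27.01 and 15.7 CPM without. Every library with tau lay below every library without it in each of the 3 settings. The log2 changes were -2.40 (SE 0.239, adjusted p = 1.38e-06), -1.65 (SE 0.234, adjusted p = 4.8e-05) and -1.10 (SE 0.221, adjusted p = 0.0013) in the same order. Hmgcs1, which joins acetyl-CoA to acetoacetyl-CoA, averaged 29.7 ± 2.85 CPM in R47H/+ cells with tau and 75.2 ± 3.31 CPM in R47H/+ cells without tau (SD, n = 3 each). In Trem2+/+ cells it averaged 44.6 ± 4.47 CPM with tau and 128.7 ± 34.8 CPM without, and its log2 changes were -1.34 in R47H/+, -0.85 with MK-2206 and -1.53 in Trem2+/+ cells. Acat2, the acetoacetyl-CoA thiolase, fell by 1.02, 0.72 and 0.96 on the log2 scale in these settings. Mvk, the mevalonate kinase gene, passed the test only in R47H/+ cells, at -0.67 against -0.20 with MK-2206 and -0.36 in Trem2+/+ cells, and the difference between genotypes had an adjusted p of 0.481. Leaving out 1 library ended the R47H/+ call of Mvk in 3 of 6 fits. The change of Mvk in Trem2+/+ cells was 0.01 without both length-shifted libraries, and the difference between genotypes passed the test at -0.77 (adjusted p = 0.00575). The next kinase gene, Pmvk, was called only in Trem2+/+ cells, at -1.19 against -0.26 in R47H/+ cells, where the test of that difference gave an adjusted p of 0.237. That contrast rests on the length-shifted libraries, and without both Pmvk was called in every setting, at -0.56 in R47H/+ cells, -0.58 with MK-2206 and -0.59 in Trem2+/+ cells. Mvd, which removes a carboxyl group to yield isopentenyl diphosphate, changed by -0.67 in R47H/+, -0.13 with MK-2206 (adjusted p = 0.682) and -0.76 in Trem2+/+ cells. Fdps fell by 2.14, 1.76 and 1.06, on few counts and with pseudogenes of up to 98.9% identity that can share its reads. Idi1 also has a processed pseudogene, Gm13502, identical over 684 bases, which took 44 counts against 4211 for Idi1, and Acat2 has a near copy in Acat3 (97.7% identity, 21 counts against 2768).

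Squalene formation and ring closure fell with tau at 3 of 3 genes in every setting. Sqle, the squalene epoxidase gene (chromosome 15, 59315077 to 59331192, GRCm38), measured 8.09, 8.21 and 5.43 CPM in R47H/+ cells with tau, against 38.8, 41.4 and 38.5 CPM in R47H/+ cells without tau. Under MK-2206 the levels were 7.17, 8.97 and 8.09 CPM with tau and 31.6, 28.9 and 35.1 CPM without. Trem2+/+ cells held 28.1, 20.7 and 27.9 CPM with tau and 77.1, 88.9 and 79.98 CPM without. The tau libraries were the lower ones throughout, with no overlap. Log2 changes were -2.45 (SE 0.165, adjusted p = 2.38e-08) in R47H/+ cells, -1.98 (SE 0.163, adjusted p = 1.3e-07) with MK-2206 and -1.68 (SE 0.156, adjusted p = 4.81e-07) in Trem2+/+ cells. Fdft1, squalene synthase, fell by 1.83, 1.10 and 1.59 on the log2 scale. Its 3' end overlaps that of the cathepsin gene Ctsb on the opposite strand over 774 bases, and Ctsb held 4801338 counts against 8281 for Fdft1, so reads may be shared where the counting ignored strand, a setting not given in the sources used here. Ctsb changed by -0.12, -0.26 and -0.35 in the same comparisons, and its part in the Fdft1 values was not tested. Lss, which closes the sterol rings, fell by 1.26, 0.84 and 0.74. The call for Lss in Trem2+/+ cells ended when those 6 libraries were fitted by themselves and without Trem2+/+ replicate 2, with adjusted p up to 0.161.

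**Figure D2:**
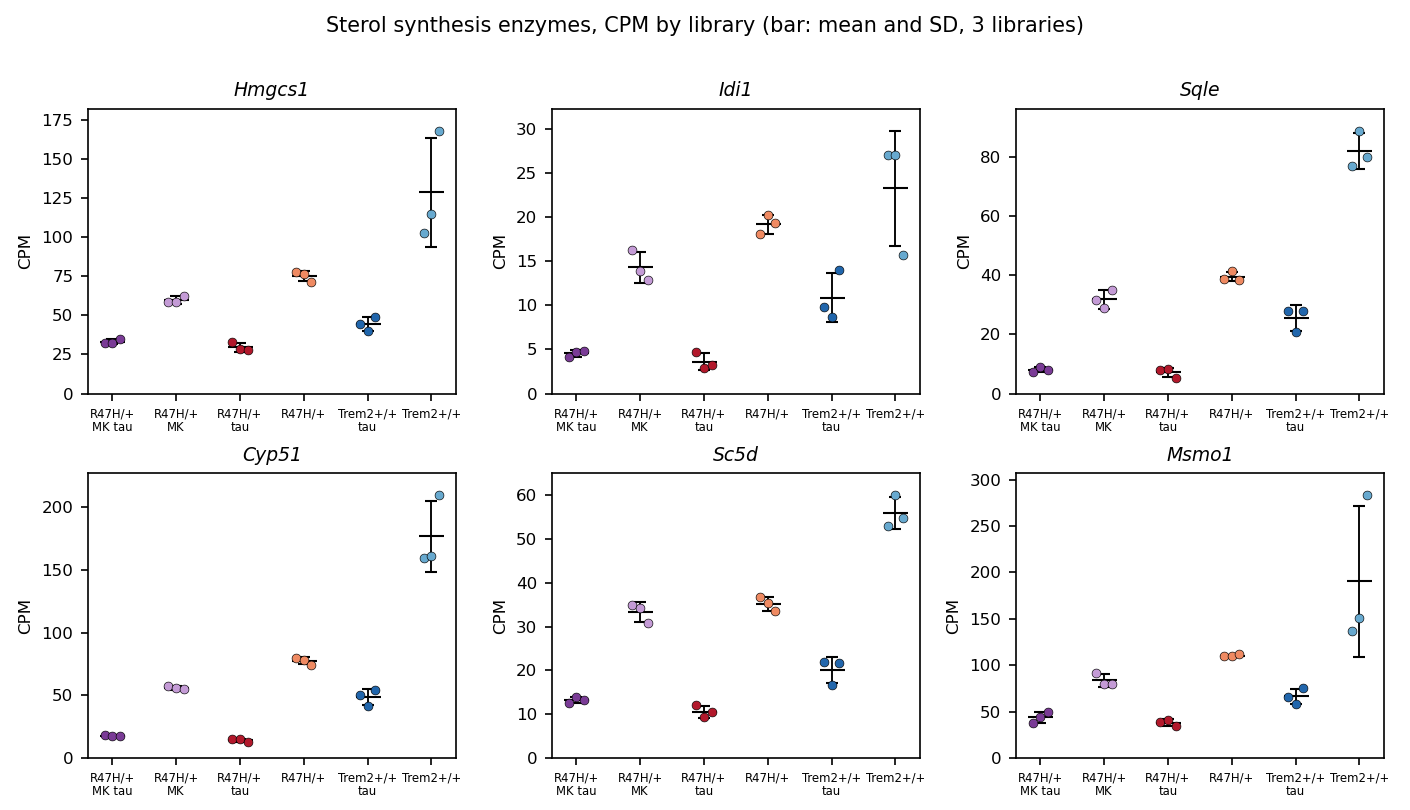
CPM of 6 sterol synthesis enzymes in each of the 18 libraries (points), with the mean and SD of 3 libraries per group (bars). Cyp51 lies between 12.5 and 14.9 CPM in R47H/+ cells with tau and between 159.5 and 209.7 CPM in Trem2+/+ cells without tau, and the high point of Msmo1 in Trem2+/+ cells is replicate 3.

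The steps from lanosterol to cholesterol fell with tau at 7 of 8 genes in R47H/+ cells, 5 of 8 with MK-2206 and 6 of 8 in Trem2+/+ cells. Cyp51 (chromosome 5, 4081145 to 4104746, GRCm38) measured 14.9, 14.8 and 12.5 CPM in R47H/+ cells with tau, against 79.9, 77.8 and 74.4 CPM in R47H/+ cells without tau. Under MK-2206 Cyp51 was at 18.3, 17.4 and 17.8 CPM with tau and 57.8, 55.6 and 54.8 CPM without. The Trem2+/+ libraries held 49.9, 41.7 and 54.5 CPM with tau and 159.5, 161.3 and 209.7 CPM without. The groups stood apart in each pair, and the spread within each tau group was small beside the distance. Log2 changes were -2.46 (SE 0.130, adjusted p = 2.18e-09) in R47H/+ cells, -1.65 (SE 0.126, adjusted p = 6.29e-08) with MK-2206 and -1.86 (SE 0.125, adjusted p = 1.11e-08) in Trem2+/+ cells. Sc5d, a sterol desaturase, measured 11.99, 9.24 and 10.4 CPM in R47H/+ cells with tau, against 36.7, 35.5 and 33.6 CPM in R47H/+ cells without tau. With MK-2206 Sc5d measured 12.6, 13.9 and 13.1 CPM with tau and 34.99, 34.2 and 30.8 CPM without, and in Trem2+/+ cells 22.0, 16.7 and 21.6 CPM with tau and 53.1, 60.1 and 54.7 CPM without. No tau library of Sc5d reached a library without tau, and the log2 changes were -1.74 (adjusted p = 5.38e-08), -1.33 (adjusted p = 5.4e-07) and -1.48 (adjusted p = 1.39e-07). Besides Cyp51, 3 genes act in the removal of methyl groups from the ring. Msmo1 fell by 1.53, 0.94 and 1.52, and Hsd17b7 fell by 1.48, 1.12 and 1.28. Nsdhl changed by -0.54, -0.32 and -0.50, with the middle value not past the test. Tm7sf2, a sterol reductase, fell by 0.91 in R47H/+ and 1.03 in Trem2+/+ cells, where it fell by 0.64 without both length-shifted libraries. It shares part of its span with Vps51 on the same strand. Dhcr7, the reductase that yields cholesterol, fell by 0.96 in R47H/+ cells and 0.69 with MK-2206, and stood at -0.31 (adjusted p = 0.124) in Trem2+/+ cells, where it passed the test without both length-shifted libraries at -0.52 (adjusted p = 1.25e-05). The isomerase gene Ebp passed no test in the fit of all libraries, with log2 changes of -0.19, -0.28 and -0.72 with tau, although DESeq2 called it in Trem2+/+ cells. Ebp was called without both length-shifted libraries at -0.44 (adjusted p = 0.000183) in R47H/+ cells and -0.30 (adjusted p = 0.00192) with MK-2206, and stood at -0.13 in Trem2+/+ cells.

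Of the 6 genes that sense or carry sterol, Insig1 and Stard4 fell with tau in every setting. Insig1 measured 36.3, 37.4 and 36.7 CPM in R47H/+ cells with tau, against 86.3, 92.2 and 91.9 CPM in R47H/+ cells without tau. MK-2206 cells held 46.2, 45.9 and 47.6 CPM with tau and 90.5, 94.8 and 96.8 CPM without. Levels in Trem2+/+ cells were 70.4, 62.4 and 67.9 CPM with tau and 150.1, 167.9 and 155.8 CPM without. The replicates lay close together and the groups far apart, with log2 changes of -1.29 (adjusted p = 1.92e-08), -1.01 (adjusted p = 1.51e-07) and -1.24 (adjusted p = 1.3e-08). Stard4, which carries cholesterol between membranes, measured 10.8, 8.55 and 8.97 CPM in R47H/+ cells with tau, against 29.98, 32.3 and 37.2 CPM in R47H/+ cells without tau. In Trem2+/+ cells Stard4 measured 27.4, 23.3 and 27.8 CPM with tau and 53.4, 61.2 and 42.5 CPM without, and with MK-2206 12.6, 13.5 and 12.8 CPM with tau and 27.1, 25.3 and 29.9 CPM without. The groups did not overlap in any of the 3 pairs, and Stard4 fell by 1.81, 1.08 and 1.00 in R47H/+ cells, in R47H/+ cells with MK-2206 and in Trem2+/+ cells.

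The genes of the SREBP factors moved apart. Srebf2 measured 105.6, 80.6 and 107.7 CPM in R47H/+ cells with tau, against 209.7, 206.8 and 212.0 CPM in R47H/+ cells without tau, a log2 change of -1.10 (adjusted p = 0.000792). With MK-2206 it measured 126.1, 127.3 and 126.8 CPM with tau and 178.1, 193.3 and 210.8 CPM without, a change of -0.61 (adjusted p = 0.0369). In Trem2+/+ cells Srebf2 measured 198.7, 172.7 and 169.5 CPM with tau and 286.1, 289.2 and 136.2 CPM without, where the low value is replicate 3, and the change was -0.40 (adjusted p = 0.168). Srebf2 thus fell in both R47H/+ settings, though the call with MK-2206 ended with the replicate block and in each of the 6 fits that left out 1 library (adjusted p up to 0.116), and in Trem2+/+ cells the groups overlapped through replicate 3. Without Trem2+/+ replicate 3 and without both length-shifted libraries the Trem2+/+ change passed the test, with values down to -0.71. Srebf1 measured 124.0, 120.6 and 130.1 CPM in R47H/+ cells with tau, against 84.5, 83.3 and 78.5 CPM in R47H/+ cells without tau, a log2 change of 0.61 (adjusted p = 0.000158). With MK-2206 it measured 105.4, 104.0 and 93.9 CPM with tau and 74.4, 81.3 and 90.7 CPM without, a change of 0.30 (adjusted p = 0.0286). Srebf1 was therefore higher in every tau library of the R47H/+ settings, and its call with MK-2206 ended without the count filter, with the replicate block and in 4 of the 6 fits that left out 1 library (adjusted p up to 0.139 in these). In Trem2+/+ cells it measured 121.7, 111.8 and 107.0 CPM with tau and 97.5, 103.4 and 96.3 CPM without, a change of 0.20 (adjusted p = 0.142). Gene counts do not separate the SREBP1a and SREBP1c transcripts.

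Scap, which escorts both SREBP proteins, measured 37.6, 33.1 and 34.6 CPM in R47H/+ cells with tau, against 53.9, 46.7 and 52.8 CPM in R47H/+ cells without tau, a log2 change of -0.54 (adjusted p = 0.00253). With MK-2206 it measured 46.5, 47.6 and 45.5 CPM with tau and 51.6, 59.05 and 60.2 CPM without, at -0.29 (adjusted p = 0.0846). In Trem2+/+ cells it measured 53.4, 45.9 and 42.9 CPM with tau and 60.4, 59.2 and 47.2 CPM without, at -0.23 (adjusted p = 0.161). In the fit of all libraries Scap passed the test in R47H/+ cells under DMSO alone among the 3 settings. It was called in each without both length-shifted libraries, at -0.52 in R47H/+ cells, -0.31 (adjusted p = 0.00378) with MK-2206 and -0.35 (adjusted p = 0.00362) in Trem2+/+ cells. Insig2, the second INSIG gene, passed no test in any comparison. It measured 24.04, 21.98 and 20.97 CPM in R47H/+ cells with tau, against 21.2, 24.8 and 20.6 CPM in R47H/+ cells without tau. With MK-2206 Insig2 measured 18.9, 23.5 and 21.2 CPM with tau and 22.9, 21.4 and 19.4 CPM without, and in Trem2+/+ cells 20.2, 22.4 and 23.6 CPM with tau and 25.6, 21.1 and 28.3 CPM without. The Insig2 groups overlapped in every pair and its log2 changes with tau lay between -0.18 and 0.01.

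**Figure D3:**
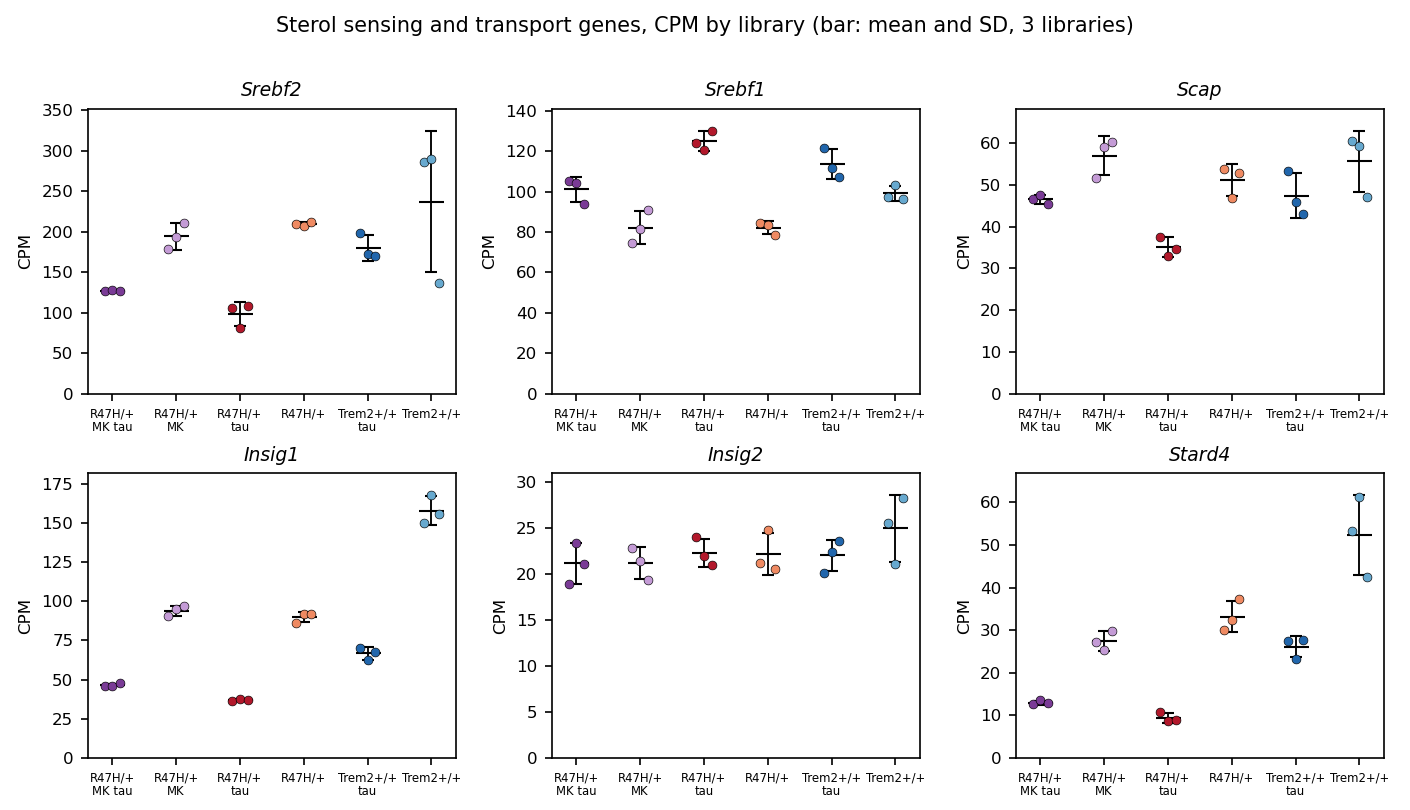
CPM of 6 sterol sensing and transport genes in each of the 18 libraries (points), with the mean and SD of 3 libraries per group (bars). Insig1 falls to between 36.3 and 37.4 CPM in R47H/+ cells with tau while Insig2 stays between 18.9 and 28.3 CPM in all libraries, and the low Srebf2 point in Trem2+/+ cells is replicate 3.

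Calls among the fatty acid genes went in both directions. Of the 11 genes, 2 rose and 3 fell with tau in R47H/+ cells (45.5% called, against 27.6% of all genes), 2 rose and 3 fell with MK-2206 (45.5% against 25.6%), and 1 rose and 2 fell in Trem2+/+ cells. The share in Trem2+/+ cells, 27.3%, was close to the 26.5% of all genes. Fasn, which builds palmitate, averaged 32.2 ± 8.06 CPM in R47H/+ cells with tau and 91.5 ± 4.79 CPM in R47H/+ cells without tau (SD, n = 3 each), and 38.4 ± 1.73 CPM with MK-2206 and tau against 92.2 ± 9.84 CPM with MK-2206 alone. The log2 changes of Fasn were -1.50 (adjusted p = 0.0025) and -1.26 (adjusted p = 0.00805). In Trem2+/+ cells Fasn averaged 67.3 ± 8.79 CPM with tau and 121.7 ± 66.5 CPM without, where replicate 3 was low at 45.0 CPM, and the change was -0.85 (adjusted p = 0.0602). Without that replicate Fasn passed the test in Trem2+/+ cells too. Fads1, a desaturase of polyunsaturated fatty acids, fell by 0.83 in R47H/+ cells, 0.61 with MK-2206 and 0.39 in Trem2+/+ cells, where leaving out 1 library ended its call in 2 of 6 fits. Elovl5, which lengthens the same fatty acids, fell by 0.30 in R47H/+ and 0.36 in Trem2+/+ cells. Both calls of Elovl5 ended without the count filter and when the groups were fitted by themselves, and leaving out 1 library ended them in 5 of 6 fits for R47H/+ (adjusted p up to 0.19) and 4 of 6 for Trem2+/+ cells (up to 0.0993). The replicate block also ended its R47H/+ call. The stearoyl-CoA desaturase genes parted, with Scd2 at 0.53 (adjusted p = 0.0448) and Scd1 at -0.57 (adjusted p = 0.0958) in R47H/+ cells and Scd1 at -0.83 (adjusted p = 0.0249) with MK-2206. The Scd2 call ended without the count filter, with the replicate block and in 5 of the 6 fits that left out 1 library (adjusted p up to 0.161), and the Scd1 call in 3 of 6 (up to 0.107). Without both length-shifted libraries Scd2 stood at 0.68 (adjusted p = 1.6e-05) with tau in R47H/+ cells. In that fit it stood at 0.43 (adjusted p = 0.000935) with MK-2206 and at -0.44 (adjusted p = 0.00145) in Trem2+/+ cells. Scd1 and Scd2 are 95.5% identical over 623 bases and Scd1 had 997 counts against 32948, so shared reads may blur Scd1. Acly, Acaca, which makes malonyl-CoA, Elovl6 and Fads2 passed the test in no pairwise comparison in the fit of all libraries. Acly and Acaca, without both length-shifted libraries, were lower with tau in every setting, by 0.25 and 0.49 in R47H/+ cells, 0.19 and 0.22 with MK-2206 and 0.23 and 0.38 in Trem2+/+ cells. Acaca and Fads2 were also called with tau when the 6 R47H/+ libraries were fitted by themselves.

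Acss2 and Me1, both suppliers of the pathway, ran against the sterol genes in different settings. Acss2 measured 17.3, 19.3 and 19.2 CPM in R47H/+ cells with tau, against 17.02, 20.9 and 17.9 CPM in R47H/+ cells without tau, a log2 change of 0.00 (adjusted p = 0.998) with overlapping groups. In Trem2+/+ cells Acss2 measured 26.2, 24.5 and 27.4 CPM with tau and 7.95, 10.2 and 5.33 CPM without, a change of 1.72 (SE 0.184, adjusted p = 2.59e-06) with no overlap. With MK-2206 it measured 20.9, 27.5 and 25.4 CPM with tau and 11.6, 12.4 and 14.5 CPM without, a change of 0.94 (SE 0.180, adjusted p = 0.000837). Acss2 therefore rose with tau in Trem2+/+ cells and in R47H/+ cells with MK-2206, and its change in R47H/+ cells under DMSO did not pass the test. Its annotated span covers Gss on the opposite strand over 22544 bases, and Gss passed no test in these comparisons (log2 changes 0.15 in R47H/+, 0.02 with MK-2206 and -0.09 in Trem2+/+ cells). Me1, malic enzyme, which supplies NADPH, measured 7.49, 5.28 and 5.37 CPM in R47H/+ cells with tau, against 3.03, 2.63 and 1.84 CPM in R47H/+ cells without tau, a change of 1.27 (SE 0.209, adjusted p = 0.000234). With MK-2206 Me1 measured 4.33, 5.66 and 3.87 CPM with tau and 2.34, 2.32 and 2.80 CPM without, a change of 0.89 (SE 0.211, adjusted p = 0.00467). In Trem2+/+ cells Me1 measured 7.70, 8.14 and 9.94 CPM with tau and 6.96, 7.70 and 7.29 CPM without, with overlapping groups and a change of 0.23 (adjusted p = 0.402). Me1 thus rose with tau in R47H/+ cells whether or not MK-2206 was present.

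**Figure D4:**
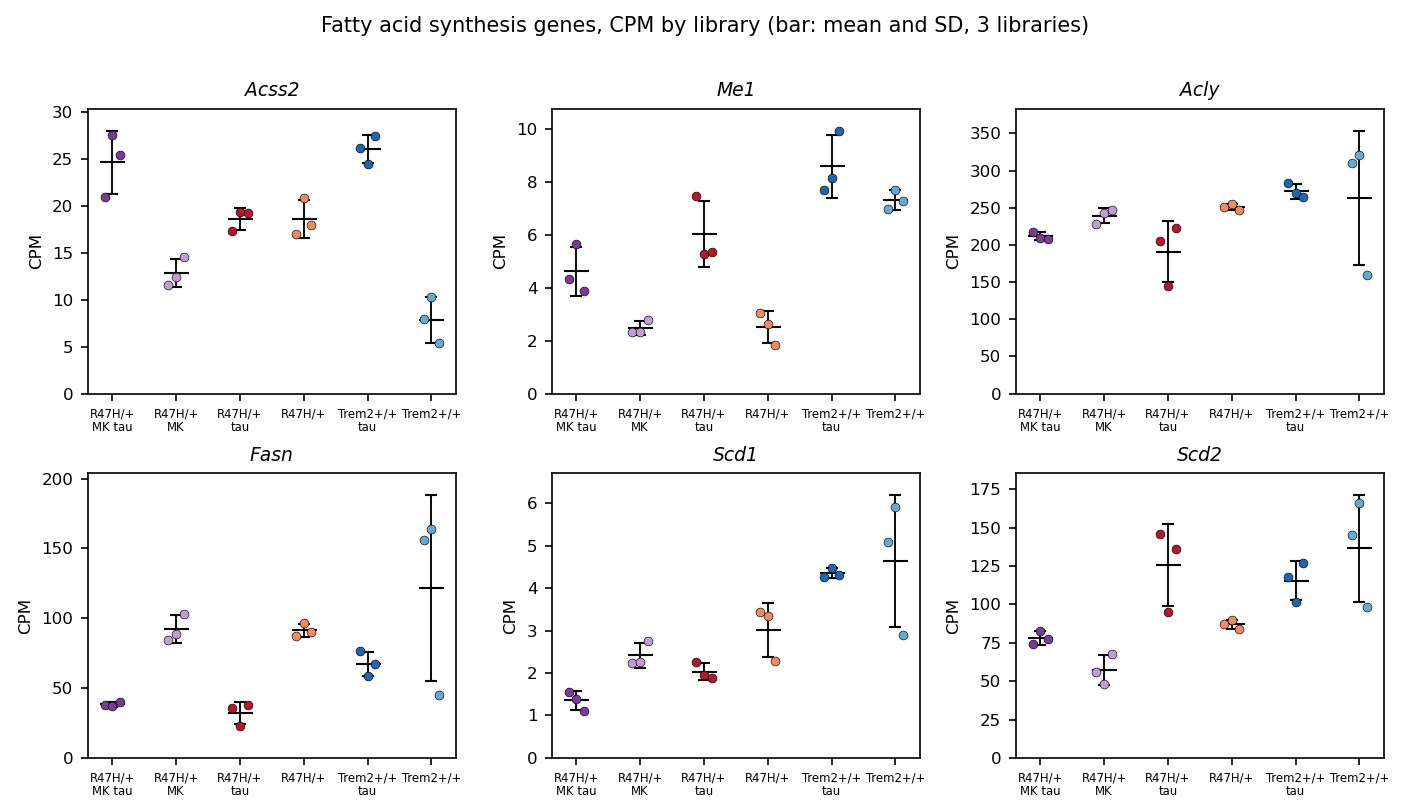
CPM of 6 fatty acid synthesis genes in each of the 18 libraries (points), with the mean and SD of 3 libraries per group (bars). Acss2 lies at 5.33 to 10.2 CPM in Trem2+/+ cells without tau and above that in the other 5 groups, Me1 has its low points in R47H/+ cells without tau, with and without MK-2206, and the low Fasn point in Trem2+/+ cells is replicate 3.

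Between genotypes without tau, 14 of the 35 genes were lower and 1 was higher in R47H/+ than in Trem2+/+ cells, when 15.1% of all genes tested were called (8.22% higher and 6.83% lower). The median log2 change was -0.48 for the 35 genes and -0.02 for all genes. These values use the same Trem2+/+ libraries as the tau comparison in Trem2+/+ cells, so the pair of comparisons is not independent. The genes lowered were 3 of 7 in the mevalonate steps, 2 of 3 around squalene, 5 of 8 from lanosterol to cholesterol, Insig1 and Stard4, and Me1 and Scd2 on the fatty acid side. With the library values given above, Cyp51 was lower in all 3 R47H/+ libraries than in any Trem2+/+ library, with a log2 change of -1.19 (SE 0.122, adjusted p = 3.6e-06). Sqle and Insig1 stood apart in the same way, at -1.05 (SE 0.153, adjusted p = 0.000147) and -0.81 (SE 0.0836, adjusted p = 3.81e-06). Me1 also stood apart, with all R47H/+ libraries below all Trem2+/+ libraries and a change of -1.54 (SE 0.207, adjusted p = 6.73e-05). Acss2 went the other way, with every R47H/+ library above every Trem2+/+ library and a change of 1.24 (SE 0.184, adjusted p = 0.000182). Sc5d, Stard4, Acat2, Hmgcs1, Mvd, Fdft1, Tm7sf2, Msmo1, Hsd17b7 and Scd2 were lower by 0.65 to 0.91 on the log2 scale. Of these, Acat2, Hmgcs1, Mvd, Fdft1, Tm7sf2 and Msmo1 were lower by less without both length-shifted libraries. In this order they stood at -0.59, -0.54, -0.64, -0.59, -0.40 and -0.38. The regulators Srebf2, Srebf1, Scap and Insig2 stood at -0.18 (adjusted p = 0.578), -0.27 (adjusted p = 0.0692), -0.12 (adjusted p = 0.505) and -0.17 (adjusted p = 0.392). Among the regulators, Srebf2 and Srebf1 passed the test without both length-shifted libraries, at -0.46 (adjusted p = 5.03e-05) and -0.29 (adjusted p = 0.0103). Without both length-shifted libraries 24 genes were lower and 1 higher, when 28.9% of all genes were called, and without Trem2+/+ replicate 3 alone 23 were called (18.8% of all genes). Fitted by themselves, with that replicate kept, the 6 libraries gave 5 calls (3.81% of all genes), which were Sqle, Cyp51, Sc5d, Insig1 and Me1.

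With tau, 19 of the 35 genes were lower and 0 higher in R47H/+ than in Trem2+/+ cells, when 9.5% of all genes tested were called (5.25% higher and 4.24% lower). DESeq2, run as another tool, called 20 of the 35, all lower (6.16% of all genes). The median log2 change was -0.69 for the 35 genes and 0.00 for all genes. No library is shared with the comparison without tau, though the fit and its estimate of the spread are. In both comparisons 11 genes were lower, which is 11 of 14 and 11 of 19. The share of all genes lower in both was not computed. The 11 were Acat2, Hmgcs1, Mvd, Fdft1, Sqle, Cyp51, Msmo1, Hsd17b7, Sc5d, Insig1 and Stard4. Of these, only Sqle, Cyp51, Sc5d and Insig1 stayed called without tau when those groups were fitted by themselves. With 1 library left out, Acat2, Msmo1 and Hsd17b7 lost their calls in some fits of both comparisons. Hmgcs1 and Mvd did so in the comparison with tau only. Fdps had a log2 change of -1.95, again on few counts. Sqle and Cyp51, whose R47H/+ libraries with tau all lay below the Trem2+/+ libraries with tau, stood at -1.82 (SE 0.163, adjusted p = 6.22e-06) and -1.79 (SE 0.128, adjusted p = 6.75e-07). Stard4 and Insig1 showed the same separation at -1.47 (SE 0.146, adjusted p = 1.3e-05) and -0.86 (SE 0.0845, adjusted p = 1.19e-05), and Idi1 stood at -1.58 (adjusted p = 0.000519). Among the regulators, Srebf2 averaged 97.96 ± 15.1 CPM in R47H/+ cells with tau, against 180.3 ± 16.04 CPM in Trem2+/+ cells with tau (SD, n = 3 each), a log2 change of -0.88 (adjusted p = 0.0122). Scap was lower at -0.43 (adjusted p = 0.0295), and Srebf1 and Insig2 stood at 0.14 (adjusted p = 0.419) and 0.02 (adjusted p = 0.946). The Scap call ended without the count filter, with the gene-length offset and with the groups fitted by themselves. Leaving out 1 library also ended it in some fits. It held without both length-shifted libraries at -0.40 (adjusted p = 0.00414). Of the fatty acid genes, Scd1 was lower at -1.10 (adjusted p = 0.00794) and Fads1 at -0.46 (adjusted p = 0.0159), and Fasn stood just outside the threshold at -1.06 (adjusted p = 0.0507). Leaving out R47H/+ with tau replicate 2 left 12 genes called (5.75% of all genes), as did leaving out Trem2+/+ with tau replicate 1 (4.64%), and leaving out both length-shifted libraries gave 25 lower (23.3%), with Mvk, Tm7sf2, Acly, Acss2, Acaca and Fasn added. The calls of Srebf2 and Fads1 ended in both fits that left 12 genes, and that of Fads1 also without the count filter. Without both length-shifted libraries they held, at -0.76 for Srebf2 and -0.41 for Fads1.

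The interaction of genotype and tau asks whether the tau response itself differed, and it was called for 4 of the 35 genes, 1 positive and 3 negative, when 5.37% of all genes tested were called (2.05% positive and 3.32% negative). The members' share is 11.4%. Idi1 fell further with tau in R47H/+ than in Trem2+/+ cells, with a difference in log2 change of -1.30 (SE 0.321, adjusted p = 0.0249). Stard4 likewise fell further, at -0.81 (SE 0.200, adjusted p = 0.025). Acss2 rose with tau in Trem2+/+ cells and stood at 0.00 in R47H/+ cells, with a difference of -1.72 (SE 0.255, adjusted p = 0.000619). Me1 had a difference of 1.04 (SE 0.283, adjusted p = 0.0434), with a rise in R47H/+ cells and a change that missed the test in Trem2+/+ cells. Sqle and Cyp51 lay just outside the threshold at -0.77 (adjusted p = 0.0558) and -0.60 (adjusted p = 0.0575), and Srebf2 and Srebf1 at -0.70 (adjusted p = 0.171) and 0.41 (adjusted p = 0.098). Insig1, which fell strongly in both genotypes, had a difference of -0.05 (adjusted p = 0.787). Over the 35 genes the difference was negative for 25 and its median was -0.31, against -0.01 over all genes. The interaction rests on the Trem2+/+ libraries without tau, and without replicate 3 of that group 10 genes were called (7.68% of all genes). Without both length-shifted libraries 12 were called, among them Sqle, Cyp51, Srebf1 and Scd2, when 11.9% of all genes were. Fitted by themselves, the 4 groups gave 1 call, Acss2 (2.78% of all genes). With 1 library left out at a time Acss2 kept its call in all 12 fits (adjusted p up to 0.00258), while Idi1, Stard4 and Me1 each lost theirs in some, with adjusted p up to 0.0772, 0.0803 and 0.124.

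**Figure D5:**
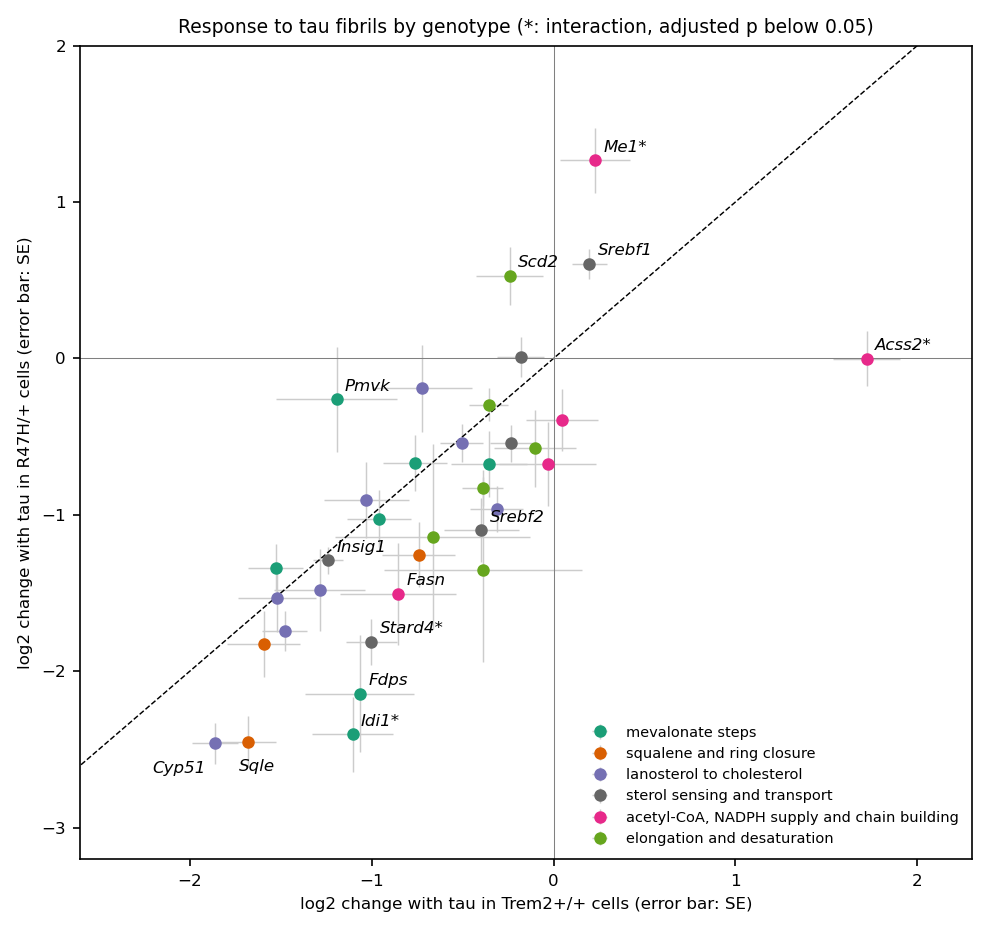
Log2 change with tau of the 35 genes in R47H/+ cells (vertical axis) and in Trem2+/+ cells (horizontal axis), with SE as error bars, colours for the role and an asterisk where the interaction passed the test. Points below the dashed line of equal change fell further in R47H/+ cells, with Idi1 and Stard4 among them, and Acss2 and Me1 lie away from the sterol genes.

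In R47H/+ cells without tau, MK-2206 gave no call among the 35 genes. By edgeR 0 were called, when 2.55% of all genes tested were called (1.19% higher and 1.36% lower), and DESeq2 called 1, Cyp51 (2.06% of all genes). The median log2 change was -0.18, against -0.01 over all genes, and 29 of the 35 values were negative. By the library values above, Cyp51 was lower in every library with MK-2206 than in every library with DMSO, at -0.46 (SE 0.122, adjusted p = 0.0575). Scd2 averaged 57.1 ± 9.69 CPM with MK-2206 and 86.97 ± 2.74 CPM with DMSO (SD, n = 3 each), at -0.61 (adjusted p = 0.125). Hmgcs1, Idi1 and Msmo1 stood at -0.33 (adjusted p = 0.403), -0.42 (adjusted p = 0.513) and -0.40 (adjusted p = 0.533), and Insig1 at 0.06 (adjusted p = 0.968). Fitted by themselves, these 6 libraries gave 9 calls, all lower (18.1% of all genes), and a fit without both length-shifted libraries called 8, all lower, when 13.9% of all genes were called. The length-shifted libraries belong to neither of these groups, and leaving them out changes only the filter, the scaling and the estimate of spread that all groups share. In both fits Hmgcs1, Idi1, Cyp51, Tm7sf2, Msmo1, Hsd17b7, Acss2 and Scd2 were called, and Sqle was in the first of them only, with log2 changes close to those of the fit of all libraries.

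In R47H/+ cells with tau, MK-2206 raised 1 of the 35 genes and lowered 0, when 3.04% of all genes tested were called (1.64% higher and 1.4% lower). The gene was Insig1, which measured 46.2, 45.9 and 47.6 CPM with MK-2206 and tau, against 36.3, 37.4 and 36.7 CPM with tau alone, a log2 change of 0.34 (SE 0.0843, adjusted p = 0.0418). Every library with MK-2206 lay above every library without it, but the call ended without the count filter, when the 6 libraries were fitted by themselves and in each of the 6 fits that left out 1 library (adjusted p up to 0.163). The median log2 change of the 35 genes was 0.19, against -0.01 over all genes, and 24 values were positive. Srebf2 and Scap stood at 0.37 (adjusted p = 0.427) and 0.41 (adjusted p = 0.0831), Srebf1 at -0.30 (adjusted p = 0.11) and Insig2 at -0.08 (adjusted p = 0.807). Cyp51, Stard4 and Fdft1 stood at 0.34 (adjusted p = 0.192), 0.46 (adjusted p = 0.117) and 0.51 (adjusted p = 0.249), and Scd2 at -0.69 (adjusted p = 0.0605). DESeq2 called 4 genes, Insig1 and Scap higher and Srebf1 and Scd2 lower (2.6% of all genes). Without both length-shifted libraries, of which 1 is in the tau group, 7 were higher (Mvd, Fdft1, Cyp51, Srebf2, Scap, Insig1 and Acss2) and 2 lower (Srebf1 and Scd2), when 12% of all genes were called.

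Whether MK-2206 changed the response to tau was tested as an interaction in R47H/+ cells, and edgeR called 0 of the 35 genes, when 0.377% of all genes tested were called (0.181% positive and 0.196% negative). DESeq2 called 2, Cyp51 and Acss2 (0.754% of all genes). The interaction was positive, that is a smaller fall or a larger rise with MK-2206, for 28 of the 35 genes, with a median of 0.35 against 0.01 over all genes. Cyp51, Stard4 and Idi1 stood at 0.81 (adjusted p = 0.0632), 0.73 (adjusted p = 0.189) and 0.75 (adjusted p = 0.566), and Acss2 at 0.94 (adjusted p = 0.166). Without both length-shifted libraries 7 genes were called, all positive (Hmgcs1, Fdft1, Cyp51, Msmo1, Srebf2, Stard4 and Acss2), when 4.94% of all genes were. The comparisons with and without tau share no library with each other, but the interaction is built from both.

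Neighbouring pathways gave calls in both directions. Of 62 genes in 5 neighbouring lists 57 were tested, and with tau in R47H/+ cells 13 were higher and 11 lower (42.1% called, against 27.6% of all genes), with a median log2 change of -0.09. In R47H/+ cells with MK-2206 tau gave 9 higher and 11 lower (35.1% against 25.6%), and in Trem2+/+ cells 7 higher and 15 lower (38.6% against 26.5%), with medians of -0.15 and -0.06. Among genes of sterol uptake, storage and transport, Lipa, the lysosomal lipase that frees cholesterol from its esters, averaged 573.1 CPM in R47H/+ cells with tau and 964.0 CPM in R47H/+ cells without tau, at -0.75 (adjusted p = 0.00019). Lipa also fell with tau with MK-2206 and in Trem2+/+ cells, at -1.05 and -0.76. Gramd1b, which moves cholesterol from the plasma membrane to the endoplasmic reticulum, rose with tau at 1.47 (adjusted p = 5.54e-05) in R47H/+ cells and 0.72 (adjusted p = 0.017) in Trem2+/+ cells. Rnf139, a ubiquitin ligase of the endoplasmic reticulum, was higher at 0.84 (adjusted p = 0.000328) with tau in Trem2+/+ cells and at 0.75 (adjusted p = 0.00167) in R47H/+ against Trem2+/+ cells without tau. Acsl1, which attaches coenzyme A to long-chain fatty acids, averaged 336.2 CPM in R47H/+ cells with tau and 49.3 CPM in R47H/+ cells without tau, at 2.77 (adjusted p = 3e-07). It rose with tau with MK-2206 and in Trem2+/+ cells as well, at 2.83 and 2.17. Lpin1, a phosphatase of glycerolipid synthesis, averaged 8.52 CPM in R47H/+ cells with tau and 44.2 CPM in R47H/+ cells without tau, at -2.37 (adjusted p = 7.18e-06), and was higher with MK-2206 and tau than with tau alone at 1.36 (adjusted p = 0.0123). In the isoprenoid branch, Nus1, a subunit of the enzyme that makes dolichol precursors, was lower with tau in Trem2+/+ cells at -0.47 (adjusted p = 0.00198). It was the only call there among the 8 genes of that branch, 12.5% against 26.5% of all genes. Tau raised 2 and lowered 0 of them in R47H/+ cells (25% against 27.6%), and raised 1 and lowered 1 with MK-2206 (25% against 25.6%). Of the 8 genes of fatty acid oxidation tau lowered 1 in R47H/+ cells, Hadhb at -0.39 (adjusted p = 0.0189), and 2 in Trem2+/+ cells. The shares of the oxidation genes, 12.5% and 25%, were no higher than the shares of all genes called in either direction.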

How the data were processed

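RNA of primary mouse microglia was sequenced as paired reads in 18 libraries. The table holds raw gene counts without normalization, which the authors made with STAR and featureCounts on GRCm38 (mm10), per the submitters' processing notes, and versions, settings and the handling of strand are not given in the sources used here. The NEBNext Ultra kit named in the labels does not mark strand. The other deposited columns used are the authors' gene coordinates and lengths. For 30 of the 35 genes these match GENCODE M21. Symbols come from the authors' table.

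The fit used edgeR 4.0.16 under R 4.3.3, with filterByExpr, TMM scaling and quasi-likelihood F-tests in a model of the 6 groups on the 18 libraries (12 residual degrees of freedom), and p-values were adjusted over 13267 genes. CPM values use TMM-scaled totals. Exact permutation tests were left out because 3 libraries against 3 allow no p below 0.1. DESeq2 1.42.0, RLE scaling, no filter, the compared groups alone, a replicate block, a gene-length offset (lowess span 0.3), each library left out and both length-shifted libraries left out were alternatives. The test was also run on simulated counts. Replicates differed by more than counting error (chi-square per gene 3.30 to 262). The 35 genes and all lists were chosen with earlier results of these data known.

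Library values are given for up to 4 called genes with the smallest p per pairwise comparison, up to 6 per interaction, and Srebf1, Srebf2, Scap, Insig1 and Insig2; up to 3 called genes per neighbouring list and comparison could be named.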

Additional observations from a re-analysis of the deposited data

Results flagged for a closer look

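For 4 of the 35 genes the response to tau differed between R47H/+ and Trem2+/+ cells by the test of the interaction (edgeR quasi-likelihood, Benjamini-Hochberg adjustment over all genes). The log2 change with tau in R47H/+ minus that in Trem2+/+ cells was -1.72 (adjusted p = 0.000619) for Acss2, -1.30 (adjusted p = 0.0249) for Idi1, -0.81 (adjusted p = 0.025) for Stard4 and 1.04 (adjusted p = 0.0434) for Me1. In a fit of the 4 groups alone Acss2 remained called and Idi1, Stard4 and Me1 were not, and without both length-shifted libraries all 4 remained called. Me1 also lost its call without the count filter and with the replicate block. With 1 library left out, Acss2 kept its call in every fit, and Idi1, Stard4 and Me1 each lost theirs in some. No group here has the 4 samples that a check for outlying samples needs.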

How the results depend on the processing

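Counts are of the 35 genes called. RLE scaling gave the same counts as the fit of all libraries by TMM in every comparison. For R47H/+ against Trem2+/+ cells without tau the count was 15, with 5 in a fit of the groups compared alone, 25 without both length-shifted libraries and 10 to 23 with 1 library left out, where 23 is without Trem2+/+ replicate 3. For tau in Trem2+/+ cells it was 20, with 11 in a fit of the groups compared alone, 27 without both length-shifted libraries and 17 to 25 with 1 library left out. For tau in R47H/+ cells it was 26 (30 without both, 23 to 25 with 1 library left out), and for tau in R47H/+ cells with MK-2206 it was 21 (29 without both, 18 to 19). For R47H/+ against Trem2+/+ cells with tau it was 19 (12 to 17). For MK-2206 without tau it was 0, with 1 by DESeq2, 9 in a fit of the groups compared alone, 2 with the gene-length offset and 8 without both length-shifted libraries (0 with 1 library left out). For MK-2206 with tau it was 1, with 0 without the count filter, 0 in a fit of the groups compared alone, 0 with the replicate block, 4 by DESeq2, 4 with the offset and 9 without both length-shifted libraries (0 to 1). For the genotype by tau interaction it was 4, with 9 by DESeq2, 1 in a fit of the groups compared alone and 12 without both length-shifted libraries (1 to 10, where 10 is without Trem2+/+ replicate 3). For the MK-2206 by tau interaction it was 0, with 2 by DESeq2, 3 in a fit of the groups compared alone, 1 with the offset and 7 without both length-shifted libraries (0 with 1 library left out). The cause of these moves was not tested.

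Over all genes, leaving out both length-shifted libraries moved the calls to 3907, 5589, 3141, 1878, 1620, 6475, 1610 and 667 in place of 1997, 3519, 1260, 338, 403, 3393, 713 and 50 (R47H/+ against Trem2+/+ without tau, tau in Trem2+/+, R47H/+ against Trem2+/+ with tau, MK-2206 without and with tau, tau with MK-2206, and both interactions), and to 5773 in place of 3667 for tau in R47H/+ cells. Fits of the groups compared alone gave 474, 1311, 2236, 220, 6225, 360 and 187 for R47H/+ against Trem2+/+ without tau, tau in Trem2+/+, MK-2206 without and with tau, tau with MK-2206 and both interactions. DESeq2 gave 553, 698, 1154 and 202 for MK-2206 without and with tau and the interactions, the offset gave 568, 686, 1071 and 135, and the replicate block gave 249 for MK-2206 with tau and 21 for its interaction. Without the count filter 236 genes were called for MK-2206 with tau. With 1 library left out, 1295 to 2975 genes were called for R47H/+ against Trem2+/+ without tau and 629 to 1041 with tau. For tau the ranges were 2640 to 4188 in Trem2+/+ cells, 2686 to 3373 in R47H/+ cells and 2709 to 2913 with MK-2206. For MK-2206 they were 138 to 198 without tau and 150 to 245 with tau. The genotype by tau interaction had 471 to 1537 and the MK-2206 interaction 9 to 43.

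Of the values of single genes 1 changed direction with a call: Acly with tau in Trem2+/+ cells stood at 0.05, not called, and at -0.23 (adjusted p = 0.00627, edgeR) without both length-shifted libraries. Correlations of same-numbered deviations lay between -0.143 and 0.201. They rest on 3 libraries a group, and Trem2+/+ replicate 3 and R47H/+ with tau replicate 2 stood apart from their groups. These correlations therefore cannot decide whether replicate numbers pair the samples. With the replicate block 15, 20, 24, 19, 0, 0, 19, 3 and 0 of the 35 genes were called in the order R47H/+ against Trem2+/+ without tau, tau in Trem2+/+, tau in R47H/+, R47H/+ against Trem2+/+ with tau, MK-2206 without and with tau, tau with MK-2206, and the genotype and MK-2206 interactions. Over all 13267 genes tested the block gave 1725, 3187, 3346, 1043, 257, 249, 3203, 598 and 21 calls in that order. Genes with few counts (Fdps, Elovl6, Scd1 and Fads2) have wide errors.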
